A study of Mus musculus with 25 samples.

Results

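The genes described here are the cytosolic ribosomal protein genes of the mouse, which encode the proteins of the 2 ribosomal subunits that work in the cytoplasm. They were chosen by a rule that used symbols alone and no measured value. It took symbols that begin with Rpl or Rps followed by a digit, and Rpsa, Rplp0, Rplp1 and Rplp2. Symbols of pseudogenes ("-ps"), the Rps6k kinases and Rps19bp were left out. Earlier results of these data were known when members and lists were chosen. The rule found 85 of the 22439 gene symbols in the matrices: 46 genes of the large subunit, 31 of the small subunit and 8 further paralogs (Rpl3l, Rpl7l1, Rpl10l, Rpl22l1, Rpl36al, Rpl39l, Rps27l and Rps27rt). Together they held 14.9% of the 208598903 UMIs (unique molecular identifiers, each of which marks 1 captured mRNA molecule).

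A ribosome reads mRNA on its small subunit and joins amino acids on its large subunit, and each subunit is a scaffold of ribosomal RNA covered by proteins. Most of these proteins are needed in equal numbers. Their mRNAs begin with a 5′ terminal oligopyrimidine (TOP) tract, a run of C and T that follows a first C and through which the kinase mTORC1, by way of LARP1, sets their translation. New ribosomes are put together in the nucleolus with the help of biogenesis factors, while initiation and elongation factors run the finished ribosome. Microglia, the resident macrophages of the central nervous system, and macrophages that enter from the blood both change state after a spinal cord injury.

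Single myeloid cells, 30958 in 25 libraries, were sorted from the lesioned spinal cord and read from the 3′ end of their mRNAs in droplets. All mice carried Cx3cr1CreERT2, an inducible Cre at the Cx3cr1 locus, which is active in microglia and in blood monocytes. In 12 libraries ("mixed") the strain is given as Cx3cr1CreERT2 alone and YFP+ cells were sorted. In the others it is Cx3cr1CreERT2:R26tdTomato, with a red reporter that Cre switches on, and RFP+/YFP+ cells were sorted as resident (5 libraries) or RFP-/YFP+ cells as infiltrating (7 libraries), so sort cannot be separated from strain. Controls (Ctrl, 2 libraries) had a laminectomy without injury, and injured mice were taken after 1, 2, 3, 10 and 21 days (D1 to D21). Each library pooled 1 to 3 mice, and no age is stated in the labels. One D3 library whose title and sort label disagree (D3_conflict 1) entered no comparison other than 1 alternative fit.

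The regions around the transcription start are shown for some of the members named below, because a TOP tract begins at the start. RefSeq start sites (GRCm38.p6) were matched for 65 of the 85 members. Each sequence runs 5′ to 3′ on the transcribed strand from 15 bases before the start to the 15th transcribed base, and capitals mark the longest run of C and T that begins with C.
Rps18: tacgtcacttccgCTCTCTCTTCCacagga
Rps6: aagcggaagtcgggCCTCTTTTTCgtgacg
Rplp2: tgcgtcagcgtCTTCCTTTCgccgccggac
Rpl13a: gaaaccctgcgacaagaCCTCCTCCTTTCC
Rps27: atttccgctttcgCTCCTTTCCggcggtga
Rps27l: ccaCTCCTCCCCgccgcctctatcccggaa
Rpl22l1: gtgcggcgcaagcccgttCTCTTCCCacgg
Rpl36al: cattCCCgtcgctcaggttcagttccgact
Rpl7l1: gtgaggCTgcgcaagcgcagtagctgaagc
These windows lie at chr17:33955651-33955680 (minus strand), chr4:86857353-86857382 (minus strand), chr7:141447636-141447665 (plus strand), chr7:45128731-45128760 (minus strand), chr3:90213634-90213663 (minus strand), chr9:66946071-66946100 (plus strand), chr3:28805493-28805522 (plus strand), chr12:69184053-69184082 (minus strand) and chr17:46782642-46782671 (minus strand), in that order. The first 5 belong to subunit genes and hold runs of 9 to 13 bases. They do not stand for all subunit genes named below. Runs were 13 bases in Rps10 and 18 in Rpl35, but 2 in Rpsa, 3 in Rps28, 4 in Rplp0 and 7 in Rps12. The runs of the paralogs Rps27l, Rpl22l1, Rpl36al and Rpl7l1 are 9, 8, 3 and 2 bases long. Those of Rps27l, Rpl36al and Rpl7l1 lie wholly before the matched start, so their lengths do not measure a TOP tract. A run of at least 8 such bases was found in 26 of the 65 members (40%) and in 10.8% of 27025 genes with a start site. Runs were counted anywhere in the window, also before the start. The letters CCGGAAG, read on either strand from 250 bases before to 50 after the start, were found in 40% of the members and in 9.93% of all genes. TATAAA on the transcribed strand in the 50 bases before the start was found in 1.54% of the members and in 3.15% of all genes. The 26 members with a run of at least 8 and the 37 tested members without one had median log2 changes of 2.02 and 1.93 in microglia at D1 against Ctrl, and this difference was not tested.

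Counts were summed over the cells of 1 library and 1 deposited cell type, and sums of at least 20 cells were used. The table names cell types by number, and they are called here by marker genes. The microglia type (13289 cells) held 9 of 9 microglial markers at a summed level of 24693 to 25965 CPM (UMI counts scaled to library size) in Ctrl and 4036 to 14227 CPM after injury. The macrophage type, monocytes included (12841 cells), held 9 of 9 macrophage markers at 2556 to 27745 CPM. The smaller types are called dendritic-like (2712 cells, 8 of 8 dendritic markers at 162 to 1108 CPM) and neutrophil-like (2116 cells, 7 of 7 neutrophil markers at 31209 to 199000 CPM). In dendritic-like cells the macrophage list stood at 946 to 4716 CPM and the monocyte list at 764 to 3203 CPM. The macrophage type also held 8 of 8 dendritic markers, at 0 to 73.6 CPM, so the count of markers alone does not separate the types. Cells per library ranged from 155 to 3800 and the median UMI count per cell from 1577 to 11233. D3_mixed 1 and D3_mixed 2, which share a sequencing pool with no other library, had the fewest UMIs per microglial cell of the fitted libraries and stood apart in the makeup of these genes. The share of 42 of 81 members in the ribosomal protein UMIs of microglia lay outside the range of the other 13 libraries after injury, 23 above and 19 below. Rpl13a made up 1.41% and 1.42% of the ribosomal protein UMIs in these 2 libraries against 0.118% to 0.311% elsewhere, and Rps21 0.417% and 0.465% against 0.997% to 2.02%. How reads that match both a gene and its processed copies were counted is not given in the sources used here, so levels of single members are uncertain in all libraries.

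**Figure D1:**
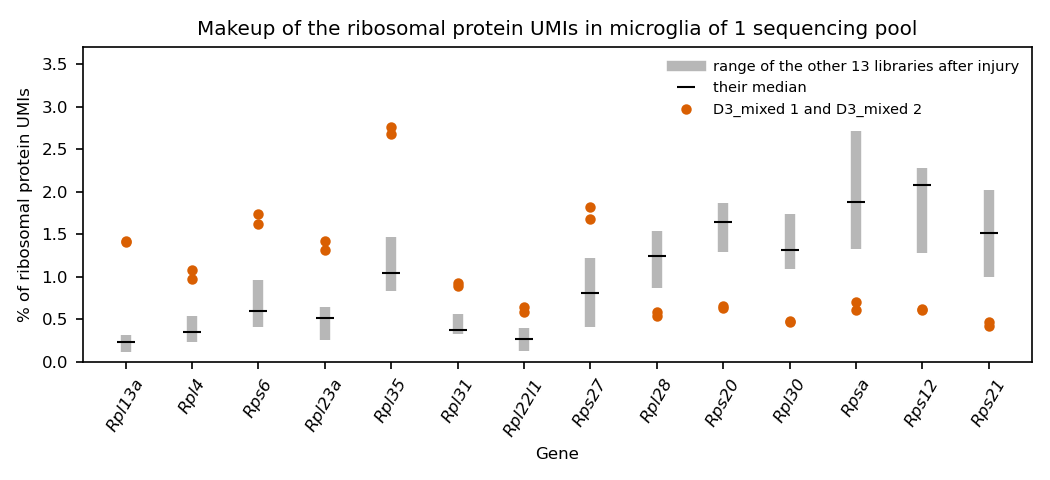
Percent of all ribosomal protein UMIs in microglia held by each of 14 genes, the 8 highest and 6 lowest in the pool of D3_mixed 1 and D3_mixed 2 (orange points) relative to the median (black tick) and range (grey bar) of the other 13 libraries after injury. The orange points lie outside the grey bar for each of the 14, with Rpl13a at 1.41% and 1.42% and Rps21 at 0.417% and 0.465%.

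The first question was how the share of these genes in microglia changed after injury. In control microglia they made up 8.68% and 9.36% of UMIs. At D1 the share was 18.7%, 20.1% and 21.1% in 3 libraries, 2.21 times the control mean. At D2 it was 16.4%, 16.6% and 19.6%, and at D3 it ran from 13.2% to 18.7% in 5 libraries with a median of 16.6%. At D10 it was 16.9%, 17.6% and 18.3%, and the single D21 library held 20.1%. Every library after injury lay above both controls. The deposited mitochondrial percent, averaged over microglia of a library, was 0.731 and 0.788 in controls, 1.29 to 2.28 at D1, 0.927 to 1.52 at D2, 0.833 to 2.64 at D3, 0.477 to 1.40 at D10 and 1.73 at D21, and its part in the result was not tested. Control microglia all lay in deposited cluster 1, which held no cell after injury. The control mean was 9.02% ± 0.478 (SD, n = 2). The D1 mean was 19.96% ± 1.23 (n = 3), that of D2 17.5% ± 1.81 (n = 3), that of D3 15.8% ± 2.24 (n = 5) and that of D10 17.6% ± 0.713 (n = 3). The 2 lowest values at D3, 13.2% and 13.9%, were those of D3_mixed 1 and D3_mixed 2.

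The balance of the subunits is given by a ratio. The ratio of small-subunit to large-subunit UMIs was 0.754 ± 0.00333 (SD, n = 2) in control microglia, 0.747 ± 0.00973 (n = 3) at D1 and 0.760 ± 0.00684 (n = 3) at D10. At D2 it was 0.756 ± 0.00602 (n = 3). At D3 it was 0.728 ± 0.0258 (n = 5), with 0.693 and 0.712 in D3_mixed 1 and D3_mixed 2, whose makeup stood apart, and 0.729 to 0.755 in the other 3 libraries.

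The share can rise because members gain UMIs or because other genes lose them, and the counts per cell show both quantities. The median count of ribosomal protein UMIs per cell was 293 and 342 in the control libraries and 565, 579 and 738 at D1. The median count of all other UMIs was 3452 and 3491 per cell in the controls and 2086 to 2898 at D1. At D3 the ribosomal protein count was 226 to 545 per cell, a range that contains both controls, while the other UMIs were 1354 to 2859. UMIs per cell depend on the depth of each library, which differed, so these are values and not a test.

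Sequencing pools divided the time points. All D1 microglia came from 1 pool that held no control, so D1 and that pool cannot be told apart. Within the pool of Ctrl_mixed 1 (9.36%) the share was 17.6% and 18.3% in the D10 libraries. Within the pool of Ctrl_resident 1 (8.68%) it was 16.4% at D2 and 16.9% at D10. The D21 library shared the pool of D1 and its 20.1% lay inside the D1 range. Other marker lists differed between control and injured microglia. The macrophage list went from 30.2 and 69.6 CPM in controls (7 of 9 genes with a UMI, Gpnmb and Fabp4 at 0) to 571 to 2974 CPM, and the monocyte list from 8.58 and 22.7 CPM to 155 to 663 CPM, of which Fn1 made up 95.8%. The neutrophil list was 199 and 219 CPM in controls and 28.1 to 151 CPM after injury, with Ly6g at 0 throughout, and the astrocyte list 128 and 152 CPM and 9.05 to 90.1 CPM. The B cell list went from 231 and 313 CPM to 33.7 to 104 CPM. Their part in the result was not tested.

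**Figure D2:**
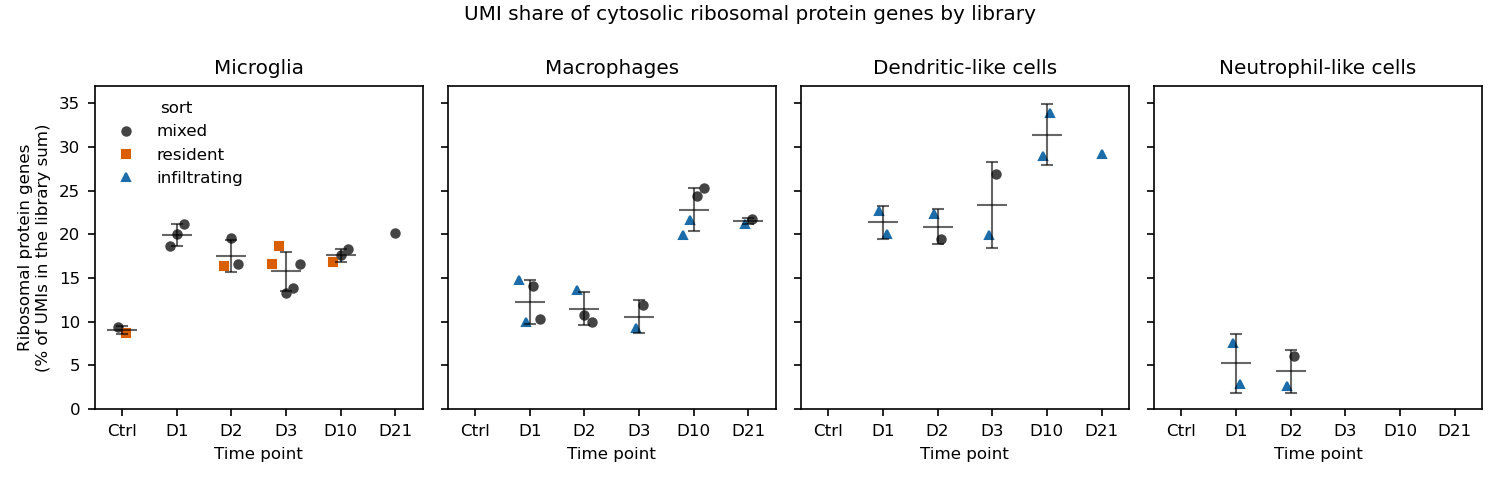
Percent of UMIs held by the 85 ribosomal protein genes (vertical axis) in each library sum of at least 20 cells of the sorts compared over time, by time point and cell type. Symbols give the sort, and the horizontal mark and bars give mean and SD where there were at least 2 libraries. Microglia lie at 8.68% and 9.36% in Ctrl and at 13.2% or more after injury, macrophages at 9.25% to 14.8% up to D3 and at 19.9% or more from D10.

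Gene by gene, each of the 83 members tested at D1 was higher than in control microglia by edgeR's quasi-likelihood test with Benjamini-Hochberg adjustment over all genes (adjusted p under 0.05), against 23.9% of the 10801 genes tested higher and 22.7% lower (Rpl3l and Rpl10l were too low to test). Their median log2 change was 1.93, from 1.03 to 3.60, beside -0.0080 over all genes. All 46 genes of the large subunit (median 1.94), all 31 of the small subunit (median 1.93) and all 6 paralogs tested (median 2.10) were among them.

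Rps18, a small-subunit protein, was among the 5 largest changes at D1, D2 and D3. It measured 611 and 677 CPM in the 2 control libraries and 2065, 2251 and 3026 CPM at D1 (log2 change 2.71, SE 0.34, adjusted p = 1.91e-05). It was 1599, 2358 and 2132 CPM at D2, 2454, 2306, 2370.4, 2729.8 and 1323 CPM at D3 and 1276, 1297 and 1371 CPM at D10. No library after injury overlapped the controls. Rps10 (log2 change 2.89, SE 0.49, adjusted p = 0.000199), also of the small subunit, and the paralogs Rpl36al and Rpl39l were among the 5 highest at D1 too. Rps6, the substrate of the S6 kinases in the small subunit, was 447 and 467 CPM in controls and 1639, 1734 and 2035 CPM at D1 (log2 change 2.64, SE 0.47, adjusted p = 0.00031).

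The members of the ribosomal stalk, which recruits elongation factors, also rose at D1. Rplp0, the base of the stalk, went from 1241 and 1286 CPM in controls to 3024, 3003 and 3681 CPM (log2 change 2.13, SE 0.25, adjusted p = 1.21e-05). Its partners Rplp1 and Rplp2 changed by 1.66 and 2.08 on the log2 scale. Rpsa, the laminin receptor protein of the small subunit, changed by 2.26 (SE 0.54), and Rpl5 and Rpl11, which together with 5S RNA bind the p53 regulator Mdm2, by 1.93 and 1.97. Rps4x and Rpl10, both on the X chromosome, changed by 1.44 and 1.29. The smallest change at D1 was that of Rps9 (log2 change 1.03, SE 0.27, adjusted p = 0.00568). Rps9 was 1837 and 1429 CPM in controls and 1803, 1931 and 2398 CPM at D1, so in CPM 1 of the D1 libraries lay below a control library.

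**Figure D3:**
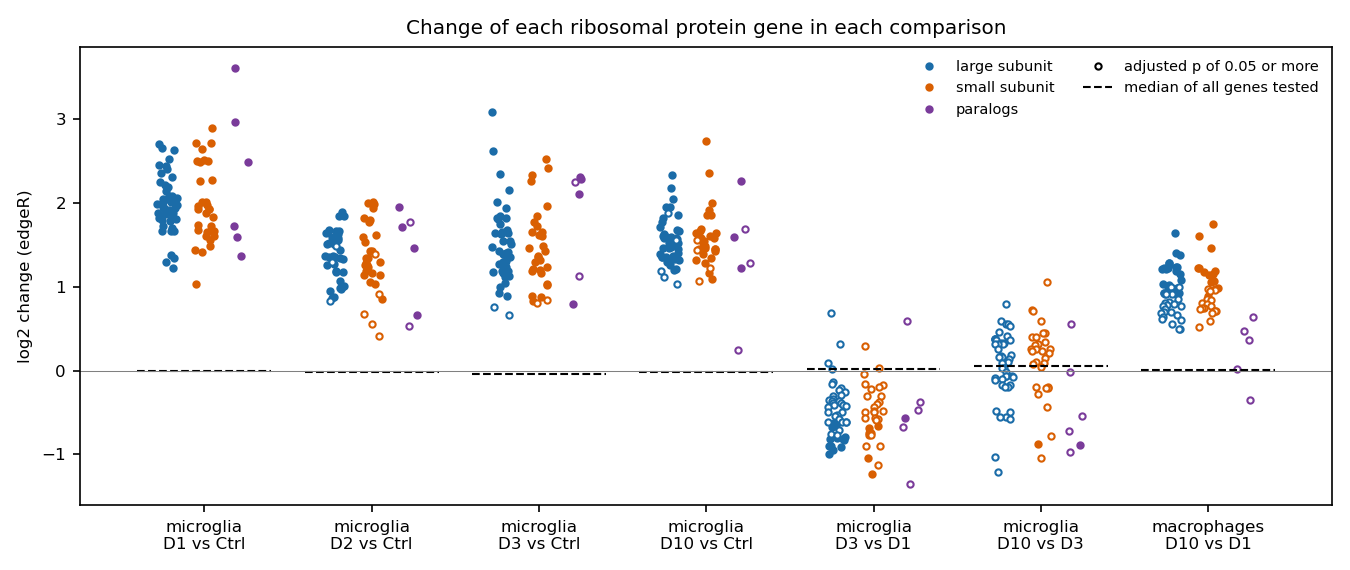
Log2 change of each tested ribosomal protein gene (points) in each comparison, by subunit (blue, large; orange, small) or as a paralog (purple). Filled points passed an adjusted p of 0.05 in edgeR, and the dashed line is the median of all genes tested. Members lie between 1.03 and 3.60 at D1 against Ctrl, with a median of -0.50 at D3 against D1, and the lowest point in macrophages is the paralog Rpl7l1 at -0.35.

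The rise was measured again at the later time points, each against the same 2 controls. At D2, 73 of 83 members were higher, against 17.6% of all genes (12.2% lower), with a median of 1.34 (all genes -0.018). At D3, 77 of 83 were higher, against 20.1% (17.6% lower), with a median of 1.41. At D10, 71 of 83 were higher, against 8.06% (2.22% lower), with a median of 1.52. No member was lower at any of the 3 in edgeR, at an adjusted or an unadjusted p under 0.05, or by DESeq2. These comparisons share their control libraries and are not independent of each other. The count at D10 fell to 33 without Ctrl_mixed 1 and to 40 without Ctrl_resident 1, and that at D2 to 31 and 44. It was also 45 at D2 without D2_mixed 1, and 51 at D3 without Ctrl_resident 1. In mixed libraries alone it was 31 at D3 and 11 at D10, and with a term for the pool 33 at D3.

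The leading members differed between the time points. At D2 they were Rps18, Rps19 (log2 change 1.99, SE 0.29, adjusted p = 0.00015), Rpsa, Rpl22l1 and Rps2, which hold log2 changes of 1.94 to 2.01. At D3 they were Rpl13a, Rpl35, Rps28, Rps18 and Rpl41, with changes of 2.34 to 3.08. At D10 they were Rps28 (log2 change 2.73, SE 0.46, adjusted p = 0.000957), Rps10, Rpl41, Rpl36al and Rpl38. Rpl13a, which is released from the ribosome to silence inflammatory mRNAs in monocytes, had its D3 value set largely by 1 pool. It measured 168 and 156 CPM in controls and 298, 557, 1876, 1948 and 196 CPM in the D3 libraries, of which the 2 values above 1800 are those of D3_mixed 1 and D3_mixed 2. Its log2 change of 3.08 became 1.73 without that pool (edgeR, adjusted p = 0.0025). Rpl35, of the large subunit, was 3648 and 3706 CPM in that pool and 1581 to 2438 CPM in the other 3 D3 libraries, and its log2 change of 2.61 became 2.16 without the pool. Without the pool, 81 of 83 members were higher at D3.

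Not passing the threshold does not show that a member was unchanged. At D10 Rps6 was 677, 722 and 773 CPM, above both controls in each library, but did not pass (log2 change 1.22, SE 0.43, adjusted p = 0.0805). Rpsa (1.44, adjusted p = 0.0807) and Rplp1 (1.03, adjusted p = 0.0875) also missed it at D10.

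Microglia at D3 were also compared with those at D1. Of 83 members 22 fell and none rose in edgeR (42 lower and 1 higher at an unadjusted p under 0.05, and 29 lower and 1 higher by DESeq2), against 10.2% of all genes lower and 8.62% higher, and the median log2 change was -0.50 (all genes 0.022). Rps10 (log2 change -1.24, SE 0.33, adjusted p = 0.0164), Rps26 (-1.04), the stalk protein Rplp1 (-0.995), Rpl22 (-0.94) and Rpl9 (-0.91) fell furthest. Rplp1 was 1707 and 1761 CPM in D3_mixed 1 and D3_mixed 2 and 3223 to 4638 CPM in the other D3 libraries. In the same order Rpl22 was 571 and 628 CPM and 999 to 1547 CPM, and Rpl9 1272 and 1351 CPM and 1613 to 2110 CPM. Rps10 was lowest in D3_mixed 3, at 402 CPM. In CPM 23 members had each D3 library below each D1 library, against 9.65% of all genes. The count moved with the libraries used: 4 members fell without D1_mixed 2, 8 without D1_mixed 3, 12 without D3_mixed 2, and 11 without the pool of D3_mixed 1 and D3_mixed 2. The D1 libraries form 1 pool, so the pool cannot be told apart from the time point here. The clusters differed as well: of the microglia fitted, 69.9% at D1 and 12.4% at D3 lay in cluster 5, 1.119% and 40.5% in cluster 3, and 0.998% and 28.2% in cluster 6. Within cluster 5 the share was 18.6%, 20.1% and 21.6% in the D1 libraries and 13.2%, 13.3%, 15.5% and 18.5% in the 4 D3 libraries with at least 20 such cells, the 2 lowest being D3_mixed 1 and D3_mixed 2.

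Between D3 and D10 the median log2 change was 0.13 (all genes 0.051), and 2 members fell and none rose in edgeR (9 lower and 6 higher at an unadjusted p under 0.05, and 8 lower and 1 higher by DESeq2), against 3.92% of all genes lower and 2.96% higher. These edgeR counts are near the shares of all genes and are no result about the members as a set. The 2 called were Rps19 (log2 change -0.87, SE 0.22, adjusted p = 0.0306), a small-subunit protein mutated in Diamond-Blackfan anaemia, and the paralog Rps27l (log2 change -0.88, SE 0.25, adjusted p = 0.045). Rps19 was 2533, 2333, 2991, 2964 and 1776 CPM in the D3 libraries and 1413, 1319.7 and 1403 CPM at D10, so the groups did not overlap. Rps6 did not pass (log2 change -1.04, SE 0.34, adjusted p = 0.0736). Without the pool of D3_mixed 1 and D3_mixed 2 neither passed, with Rps19 at -0.70 (adjusted p = 0.0745) and Rps27l at -0.74 (adjusted p = 0.111). With the replicate block in mixed libraries 12 members were higher and 1 lower. With a term for the sequencing pool Rps19 and Rps27l were 0.20 and 0.32, neither past the threshold.

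The paralogs, which stand in for or resemble a subunit protein, were compared with their partners. Rpl22l1, the partner of Rpl22, was 179 and 227 CPM in controls, 505, 447 and 261 CPM at D1 and 657, 577, 775, 886 and 434 CPM at D3. It changed by 1.72, 1.94 and 2.30 at D1, D2 and D3 on the log2 scale, while Rpl22 changed by 1.98, 1.17 and 1.04. The values of Rpl22l1 from D1 to D3 thus go up while those of Rpl22 go down, and Rpl22 passed the test of D3 against D1 while Rpl22l1 did not (0.58, adjusted p = 0.11). Without the pool of D3_mixed 1 and D3_mixed 2 the change of Rpl22 was -0.55 (adjusted p = 0.107, edgeR), and the difference between the partners was not tested.

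Rps27l, a p53-induced paralog of Rps27, was 119 and 208 CPM in controls, 525, 544 and 567 CPM at D1 (log2 change 2.49, SE 0.34, adjusted p = 3.82e-05) and 283, 249 and 227 CPM at D10 (log2 change 1.22, SE 0.32, adjusted p = 0.0177). Rps27 was 1066 and 678 CPM in controls, 1019, 1203 and 1728 CPM at D1 (log2 change 1.49, SE 0.40, adjusted p = 0.00575) and 1868, 1962 and 2137 CPM at D10 (1.86). Rps27l was therefore highest at D1 and Rps27 at D10 among these 3 groups. At D2 Rps27 did not pass (0.41, adjusted p = 0.409).

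Rpl36a, on the X chromosome, and its autosomal copy Rpl36al both rose at D1, by 2.31 and 2.95. The same held for Rpl39 (1.80) and Rpl39l (log2 change 3.60, SE 1.17, adjusted p = 0.0182), although Rpl39l was 9.83 and 0 CPM in controls and 4.59, 56.7 and 12.5 CPM at D1, so 1 D1 library lay below a control and 1 lay far above the others. Rpl39l passed at D1 and at none of D2, D3 and D10. Rpl7l1, which acts in large-subunit assembly, rose at D1 (log2 change 1.36, SE 0.25, adjusted p = 0.000363), was 0.66 at D2 and was not called at D10 (0.25, adjusted p = 0.553). It measured 109.9 and 98.7 CPM in controls, 158, 165 and 143 CPM at D1 and 86.9, 81.3 and 76.1 CPM at D10, below both controls in CPM. It is the 1 member tested with each D10 library below both controls, against 58.5% of all genes in CPM.

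Genes that make or run ribosomes were read from lists beside the members. Of 40 ribosome biogenesis genes 36, 13, 13 and 4 were higher than in controls at D1, D2, D3 and D10 in turn, beside 23.9%, 17.6%, 20.1% and 8.06% of all genes. At D10 that is a share near that of all genes. Their summed level was 2250.0 and 2342 CPM in controls, 6526 to 7081 CPM at D1 and 2589 to 2801 CPM at D10. Against D1, 36 of the 40 were lower at D3, beside 10.2% of all genes, with a median of -1.44, beside -0.50 for the members. The largest changes at D1 were in Nhp2, a protein of the H/ACA particles that modify ribosomal RNA (log2 change 3.72, SE 0.32, adjusted p = 9.99e-07), and Npm1, a nucleolar chaperone (log2 change 3.25, SE 0.33, adjusted p = 4.61e-06). Ncl, the nucleolar protein nucleolin, changed by 2.90 at D1 and by -1.64 from D1 to D3. Polr1b, a subunit of RNA polymerase I, which transcribes ribosomal RNA, fell by 2.13 on the log2 scale from D1 to D3 (adjusted p = 0.00343). At D10 the sum of the biogenesis list lay above both controls and below each D1 library.

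**Figure D4:**
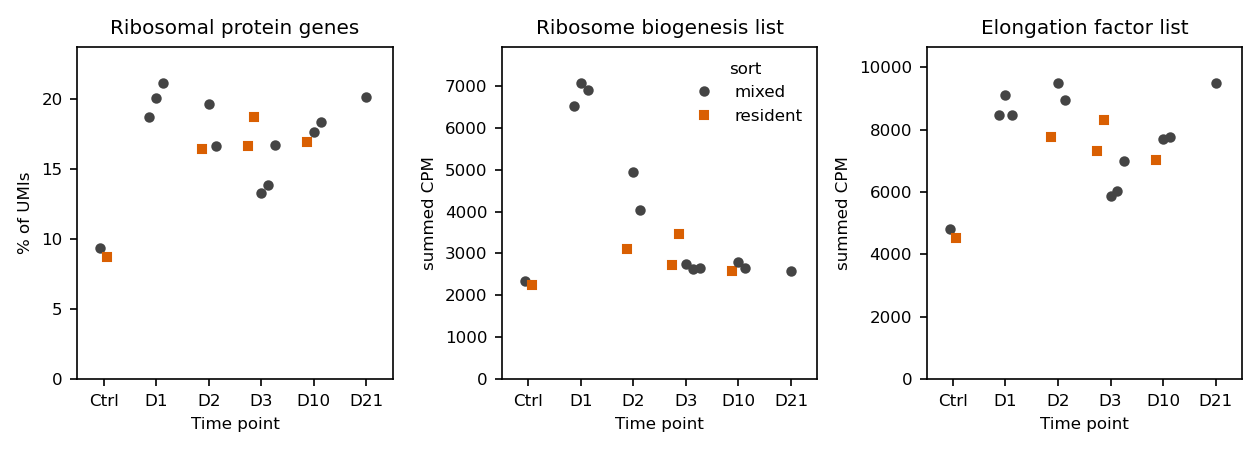
Ribosomal protein genes (percent of UMIs), the 40 ribosome biogenesis genes and the 7 elongation factor genes (summed CPM) in microglia by time point, 1 point per library, with symbols for the sort. The biogenesis list stands at 6526 to 7081 CPM at D1 and at 2589 to 2801 CPM at D10, against 2250.0 and 2342 CPM in controls, while the ribosomal protein genes stay at 16.9% to 18.3% at D10.

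The counts of the other lists stand beside the same shares of all genes. Of the 7 elongation factor genes 7, 7, 6 and 5 were higher at those times, and 4 fell from D1 to D3, beside 10.2% of all genes lower. Eif5a changed by 3.45 at D1 and Eef1a1, which delivers aminoacyl-tRNA, by 1.03. Of 32 initiation factor genes, 30 were higher and 1 lower at D1, and 7 were higher at D10. Eif1ax (2.85) and Eif2s2 (2.66) led at D1, and Eif4a2, a helicase, was lower (log2 change -2.14, SE 0.46, adjusted p = 0.00112). Of 17 other genes whose mRNAs carry a TOP tract, some of them also on the lists above, 17, 15, 17 and 11 were higher. Vim, an intermediate filament gene, led them with a log2 change of 5.75 at D1. The ribosomal component Rack1 (2.15) passed at D1, as did Fau. Of 78 mitochondrial ribosomal protein genes (Mrpl and Mrps), 69, 52, 52 and 11 were higher, the last beside 8.06% of all genes at D10.

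The scaling between libraries sets how large these changes appear. Without a scaling factor the median of all genes was -0.73, -0.40, -0.62 and -0.60 in the comparisons of D1, D2, D3 and D10 with Ctrl. The member median was then 1.19, 0.995, 0.82 and 0.93 in the same order, with 70, 61, 54 and 59 of 83 members higher. No median changed direction.

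The second question was how macrophages changed, for which D1 served as the reference since no cell of the control libraries carried that type. The share was 9.998%, 10.3%, 14.1% and 14.8% in the 4 D1 libraries (12.3% ± 2.52, SD), 11.5% ± 1.92 (n = 3) at D2 and 10.6% ± 1.87 (n = 2) at D3. It was 19.9%, 21.7%, 24.4% and 25.3% at D10 (22.8% ± 2.49, n = 4), 1.86 times the D1 mean, and 21.3% and 21.8% at D21. No library at D10 or D21 overlapped those at D1 to D3. The mitochondrial percent in macrophages was 0.447 to 1.58 at D1, 0.572 to 1.679 at D2 and 0.385 to 0.736 at D3. It was 1.681 to 1.89 at D10 and 1.54 to 2.29 at D21, so it too was higher in each D10 library than in each D1 library. The highest D2 value lay just under the lowest at D10. Its part in the result was not tested. The median ribosomal protein count per cell was 559 to 1746 at D1 and 803 to 1833 at D10, and the other UMIs were 3658 to 9794 and 2572 to 6143, so both ranges overlapped.

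Of 82 members tested, 36 were higher in macrophages at D10 than at D1 and none was lower (also none at an unadjusted p under 0.05 or by DESeq2), against 7.31% of 8577 genes higher and 7.04% lower (edgeR). The median was 0.92, beside 0.010 over all genes. The macrophage type was made up of different deposited clusters at the 2 times. Of 3236 cells at D1, 53.96% lay in cluster 11, 21.04% in cluster 12 and 19.65% in cluster 8, and of 786 cells at D10, 61.1% lay in cluster 9 and 22.6% in cluster 3. The pooled D10 values are set by D10_infiltrating 1, the largest library: cluster 9 held 28 of 116, 10 of 53 and 10 of 68 cells in D10_infiltrating 2, D10_mixed 1 and D10_mixed 2, where cluster 3, most of whose cells are microglia, held 67, 21 and 30. So a change within a cluster and a change of clusters cannot be told apart in these sums. Without the macrophages of clusters 2 and 3, an alternative chosen after seeing the data, the mean share was 11.3% at D1 and 22.5% at D10 and the median log2 change 0.88, but 8 members passed in place of 36, from 3 D1 and 4 D10 libraries. D1_mixed 1 drops out of that fit with 19 cells, and leaving out D1_mixed 1 alone gave 13. Within cluster 9 the share was 10.5% in D1_infiltrating 1 (52 cells), 14.6% in D2_resident 1 (29 cells), 17.8% in D3_infiltrating 1 (61 cells) and 11.6% in D3_mixed 3 (2676 cells). It was 19.4%, 19.9% and 17.7% in D10_infiltrating 1, D10_infiltrating 2 and D10_resident 1 and 14.6% in D21_infiltrating 1. D3_infiltrating 1 thus lay near the D10 libraries. In CPM 62 of the 82 had each D10 library above each D1 library, against 9.81% of all genes. Rps21, of the small subunit, was 1740.2, 887, 1492 and 1236 CPM at D1 and 4100.5, 4059, 4144 and 4534 CPM at D10 (log2 change 1.74, SE 0.32, adjusted p = 0.00448). Rpl36a was 542, 353, 639.8 and 523 CPM at D1 and 1448, 1447, 1523 and 1690.5 CPM at D10 (log2 change 1.64, SE 0.31, adjusted p = 0.00506). In both genes the lowest D10 library lay above the highest D1 library. Rps12 (1.61), Rps28 (1.45) and Rpl39 (1.40) completed the 5 highest. Rps27 (1.15), Rps4x (1.18), Rpl22 (1.02) and Rpl10 (0.93) also passed.

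The paralogs are given by their values in macrophages. None of 5 tested was called in edgeR, which with so few genes is near the 7.31% of all genes higher and is no result about them, 0 had an unadjusted p under 0.05, and their median was 0.37. DESeq2 passed none of the 4 it was read for, with the lowest adjusted p, 0.107, for Rpl22l1. Rpl7l1 was 99.4, 116, 131 and 109 CPM at D1 and 69.1, 76.1, 106 and 99.8 CPM at D10 (log2 change -0.35, SE 0.21, adjusted p = 0.291). Rpl22l1 (0.63, adjusted p = 0.18) and Rpl36al (0.37, adjusted p = 0.466) missed the threshold. So did Rplp0 (0.56) and Rps6 (0.51) among the subunit genes.

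The other lists in macrophages stand beside the same 7.31% of all genes higher and 7.04% lower at D10 against D1. Of 39 biogenesis genes 1 was higher, Nop10 (log2 change 1.20, SE 0.30, adjusted p = 0.0195). Of 32 initiation factors 1 was higher (Eif3f) and 4 were lower, led by the cap-binding protein Eif4e (log2 change -1.44, SE 0.22, adjusted p = 0.00157) and by Eif4ebp1 (-1.23), which holds Eif4e back. The macrophage marker list was 9343 to 18642 CPM at D1 and 2556 to 7373 CPM at D10, the microglia list 309 to 1180 CPM and 960 to 3770 CPM, and the B cell list 3.37 to 25.8 CPM and 59.97 to 244 CPM. Their part in the result was not tested. No pool held macrophages of both D1 and D10, so the sequencing pool cannot be told apart from the day here. Within the pool of D1_mixed 1 (14.1%) and D1_mixed 3 (10.3%) the share in macrophages was 21.8% in D21_mixed 1. Within that of D2_mixed 1 (10.8%), D2_mixed 2 (9.997%) and D3_mixed 3 (11.9%) it was 21.3% in D21_infiltrating 1. The count of 36 was 6 without D10_infiltrating 2, 7 without D10_mixed 1 or D1_infiltrating 2, 8 without D10_mixed 2, 10 without D1_mixed 3, 13 without D1_mixed 1 and 23 without D21_infiltrating 1, with a median between 0.78 and 1.07 in each fit.

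Libraries that held both cell types allowed a comparison in which each library is its own control for pool. Sort and strain were not balanced over time here. The libraries of D1 to D3 were mixed or resident, while those of D10 and D21 include D10_infiltrating 2 and D21_infiltrating 1. In the 8 libraries of D1 to D3 the share in macrophages was lower than in microglia of the same library, with differences from -10.9 to -3.82 percentage points (median -5.94). In the 6 libraries of D10 and D21 it was higher in 5, with a median difference of 1.46 points, from -1.12 to 7.02. The exception was D10_infiltrating 2 (21.7% in macrophages and 22.8% in 36 microglia). Of the macrophages in these 6 libraries 16.4% to 91.0% lay in cluster 3, which also held 44.3% to 71.8% of their microglia, while in the 8 earlier libraries at most 10.1% did. Without the macrophages of clusters 2 and 3, D21_mixed 1 kept 6 cells, and in the other 5 late libraries the difference ran from -2.14 to 6.87 points, higher in 4. Of 82 members 13 were higher in each of these 6 libraries, against 5.98% of all genes. The types were defined on the same cells, so these directions are a description. Within the pool of D1_mixed 1 and D1_mixed 3 the differences were -4.57 and -10.9 points at D1 and 1.64 points at D21. Within that of the resident libraries of D2 and D10 they were -5.26 and 1.28 points.

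Whether the macrophage to microglia ratio of each gene differed between the windows was tested with edgeR over the sums of both types in these 14 libraries, with library as a term. This test was added after the values were seen, and it held no term for sort, which differed between the windows. The ratio was higher at D10 and D21 than at D1 to D3 for 70 of 83 members, against 7.29% of 8559 genes higher and 3.84% lower. The median log2 difference was 0.87, beside -0.024 over all genes. Leaving out each library in turn gave 44 (without D10_mixed 1) to 75 members. Without the macrophages of clusters 2 and 3, 32 members passed, with a median of 0.86, in 7 early and 5 late libraries. Rpsa (log2 difference 1.39, SE 0.25, adjusted p = 0.00122), Rps12 (log2 difference 1.37, SE 0.23, adjusted p = 0.000699) and Rpl10a (log2 difference 1.33, SE 0.21, adjusted p = 0.000406) had the 3 largest increases. The lowest estimate was that of the paralog Rpl39l (log2 difference -1.46, SE 1.54, adjusted p = 0.603), a gene of few UMIs, which did not pass. The lowest estimate of any member moved with single libraries, to -4.86 without D10_mixed 2 and to -0.63 without D1_mixed 1. Rpl36al (log2 difference 0.11, SE 0.24, adjusted p = 0.831), Rps27l (log2 difference 0.35, SE 0.31, adjusted p = 0.523), Rps27 (log2 difference 0.34, SE 0.21, adjusted p = 0.334) and Rpl7l1 (log2 difference 0.40, SE 0.22, adjusted p = 0.279) were among the 13 that did not pass, of which 5 are paralogs.

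**Figure D5:**
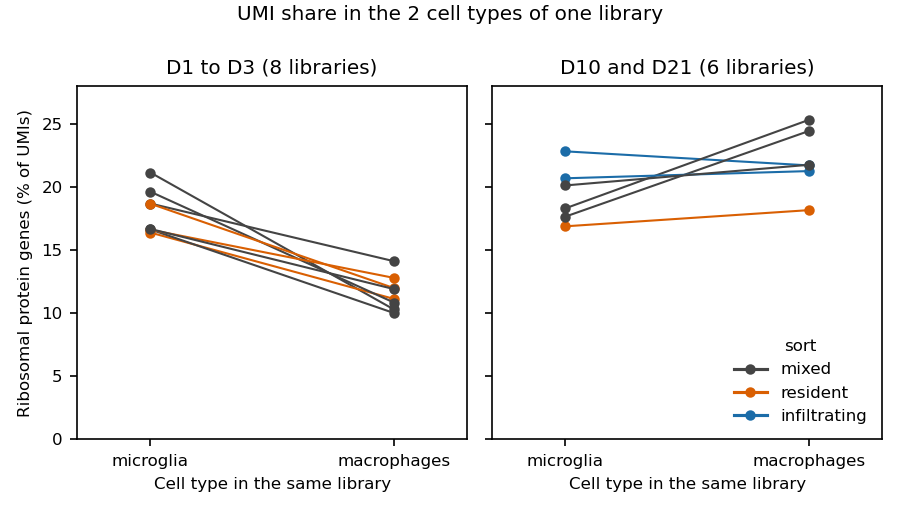
Percent of UMIs held by the ribosomal protein genes in microglia and macrophages of the same library, each line 1 library, coloured by sort. All 8 lines of D1 to D3 go down from microglia to macrophages, and 5 of the 6 lines of D10 and D21 go up, the exception being D10_infiltrating 2.

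In dendritic-like cells the share was 20.1% and 22.7% at D1, 19.5% and 22.3% at D2, 19.9% and 26.9% at D3, 28.9% and 33.9% at D10 and 29.2% at D21. Within each of 9 libraries it exceeded that of macrophages, by 7.92 to 14.99 points, and 76 of 82 members were higher in all 9, as were 8.70% of 8723 genes. Rpsa (median log2 ratio 1.15) and Rps4x (1.11) were among the highest, while Rps27l (0.019) and Rpl7l1 (0.14) were lowest. Neutrophil-like cells had the lowest share of the 4 types at D1 and D2, with 2.86% and 7.60% at D1 and 2.61% and 6.03% at D2. They lay below macrophages in 4 of 4 libraries, with differences from -11.1 to -3.97 points. Rps4x had a median log2 ratio of -3.10 there and Rps27 one of -0.019. No p is given, as the types were defined on these cells.

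The deposited clusters split the types further, and values are given as a description. Cluster 1 held only control microglia (1887 cells) and had a mean share of 9.02% ± 0.478 (SD, n = 2). Clusters 2 to 6, which held no control cell, had mean shares from 15.4% to 20.3%; of these, clusters 2 and 3 also held 123 and 348 cells of the macrophage type. Within the same library cluster 3 exceeded cluster 4 in 6 of 6 libraries, by 2.21 to 7.23 points. Among macrophages cluster 11, with 4504 cells the largest cluster of the table, had a share of 8.11% ± 1.81 (n = 9), and cluster 12 had 16.2% ± 2.01 (n = 5). Cluster 12 exceeded cluster 11 in 5 of 5 libraries by 7.36 to 8.36 points. Cluster 8 exceeded cluster 11 in 7 of 7 libraries, by 2.95 to 7.66 points.

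Shares were also compared by the depth of single cells. In the third of microglia with the fewest UMIs the share was higher than in the third with the most in 10 of 16 libraries, with a median difference of 0.576 points and a range from -2.81 to 4.15. In macrophages it was higher in 6 of 12 libraries. With each cell thinned to 1000 UMIs, 56 of 82 members were higher in macrophages at D10 than at D1, and 8 of 83 were lower in microglia at D3 than at D1.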

How the data were processed

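Cells were captured with 10x Genomics 3′ chemistry, per the labels' protocols. Raw counts of UMIs for every gene and cell were deposited, made with Cell Ranger 3.1.0 on GRCm38 (mm10) per the submitters' processing notes, and per cell the percent of mitochondrial counts, cluster, cell type and sequencing pool as codes. Cell filters, gene annotation and doublet treatment are not given in the sources used here. All cells were kept, with no search for doublets and no correction for free RNA. Sums per cell equalled the deposited totals for all 30958 cells, and libraries shared 0 barcodes.

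Counts were summed per library and cell type (at least 20 cells) and tested with edgeR 4.0.16 (quasi-likelihood, TMM, filterByExpr, terms for time point and sex) in R 4.3.3, with Benjamini-Hochberg adjustment over all genes and a threshold of 0.05. Microglia came from 17 resident and mixed libraries (10801 genes, 10 residual degrees of freedom) and macrophages from 15 infiltrating and mixed libraries (8577 genes, 9 degrees). The library is the replicate; it pools mice, and nothing says whether pools of 1 group shared mice. One infiltrating D2 library is labelled female but carries the code of male libraries in the cell table; the label was followed. In simulated data at D3 against Ctrl (10486 genes), 22% of 2-fold and 91% of 4-fold changes were recovered; in the test of ratios (8305 genes), 26% and 93%.

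Named members are, per comparison, the 5 highest and 5 lowest past the threshold and a set list of members; from each other list, up to 2 per direction and Eef1a1, Npm1 and Ncl. The symbol rule for members used no measured value, but members and lists were chosen with earlier results of these data known. Replicate numbers did not pair libraries (r from -0.19 to 0.11 between equal numbers). Alternatives were DESeq2 1.42.0, other scalings, filters, cells, terms and libraries. Leaving out the pool of D3_mixed 1 and D3_mixed 2, or the macrophages of clusters 2 and 3, and the test of ratios, were chosen after seeing the data. Values of some single genes are not reported here. Coordinates are from RefSeq GRCm38.p6.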

Additional observations from a re-analysis of the deposited data

Results flagged for a closer look

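Of 57 groups of 4 or 5 libraries examined, 6 had 1 library far from the others; chance alone gives about 1 in 20. In D3 microglia Rpl5 was 1578 CPM in D3_resident 2 against 558 to 806 CPM in the other 4, Rpl36al was 248 CPM in D3_mixed 3 against 590 to 702 CPM, and Rpl7l1 was 152 CPM in D3_mixed 2 against 102 to 115 CPM. In macrophages Rpl10 was 3126 CPM in D10_infiltrating 1 against 3476 to 3497 CPM in the other 3 D10 libraries. Rpl39l was 21.2 CPM in D1_mixed 1 against 0.463 to 2.43 CPM, and 2.22 CPM in D10_mixed 2 with the other 3 listed at 0.

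The change of the macrophage to microglia ratio between D1 to D3 and D10 to D21 passed the test in the upward direction for 70 of 83 members in 14 libraries (edgeR, adjusted p under 0.05), beside 7.29% of 8559 genes higher and 3.84% lower, for 44 without D10_mixed 1 and for 32 without macrophages of clusters 2 and 3.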

How the results depend on the processing

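Leaving out each library in turn gave 72 to 83 members higher at D1 against Ctrl, 31 to 75 at D2, 51 to 77 at D3 and 33 to 76 at D10, the lowest without a control library in each. It gave 4 to 31 members lower at D3 against D1, 0 to 8 in either direction at D10 against D3, 6 to 51 higher in macrophages at D10 against D1, and 44 to 75 in the test of ratios. For D3 against D1 the count of 22 became 12 on library totals, 8 with cells thinned, 11 without the pool of D3_mixed 1 and D3_mixed 2 and 39 with the replicate block. For D10 against D3 the count of 2, both lower, became 9 with DESeq2 (8 lower, 1 higher), 6 without a filter (5 lower, 1 higher), 1 with a sort term, 13 with the replicate block (1 lower, 12 higher), and 0 with a pool term, in mixed libraries alone, without clusters 6, 7 and 10, with cells thinned and without that pool. There the pool term also reversed the median of members (-0.054) and Rps27l (0.32), Rps19 (0.20) and Rps6 (0.43), and the median was -0.023 without that pool. Rpl7l1 at D10 against Ctrl was -0.34 on library totals. For D3 against Ctrl the count was 33 with a pool term and 31 in mixed libraries alone; for D10 against Ctrl it was 11 in these. In macrophages it was 64 with DESeq2, 17 without a filter, 13 with at least 50 cells, 63 in mixed libraries alone, 15 without cluster 2, 8 without clusters 2 and 3 and 56 with cells thinned; the test of ratios gave 32 without macrophages of clusters 2 and 3, and D21 macrophages then held 20.8%. The mean of per-cell shares was 18.5% in D10 microglia and 22.2% in D21 macrophages, which held 19.9% without clusters 6, 7 and 10. The cause was not tested. Replicate numbers do not pair the libraries; with the replicate block in mixed libraries 34 members were higher at D3 and 14 at D10 against Ctrl. The block could not be fitted for macrophages, nor the pool term for D1 contrasts or macrophages.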

Other observations

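Macrophages sorted as resident entered the test of ratios but not the comparison of time points. Their ribosomal protein share was 11.1% at D2, 12.8% and 11.97% at D3 and 18.2% at D10. In D3_conflict 1 the share was 13.3% in macrophages, 23.9% in dendritic-like cells and 9.98% in neutrophil-like cells.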
